A study of Mus musculus with 6 samples.

Results

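Long noncoding RNA (lncRNA) genes are transcribed into RNAs that are not read as protein. Their promoters were followed here in 6 lists of open chromatin intervals from cultured mouse adipocytes, 2 libraries each of beige, white and brown cells. A start site was the 5′ end of a GENCODE gene record of type lincRNA, antisense or processed_transcript, and it was kept when it lay over 5 kb from every start site of a protein-coding transcript. By this rule 6873 of 9603 genes were kept, of which 5143 were lincRNA, 1366 antisense and 364 processed_transcript genes. Their median distance to the nearest protein-coding start site was 57.4 kb. The members are the intervals with at least 1 base within 1 kb of such a start site. They numbered 1933 of 118812 intervals in beige 1, 2026 of 127490 in beige 2, 1863 of 120473 in white 1, 1898 of 119385 in white 2, 1894 of 113861 in brown 1 and 1741 of 109143 in brown 2. A promoter with such an interval in a library is called open in it, and one without is called closed, which means only that the list of that library has no interval there.

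The stromal vascular fraction of wild type male C57BL/6J mice aged 3 to 4 weeks was differentiated for 7 days and profiled by ATAC-seq, which cuts accessible DNA with a transposase. Beige and white cells came from the inguinal depot, and brown cells from brown fat. All media held 0.5 mM isobutyl methylxanthine and insulin, for which the labels give 5 μg/ml in each medium and the study's methods give lower doses that differ between beige and white medium. Beige and brown medium also held 5 μM dexamethasone, 1 nM T3 and 1 μM rosiglitazone, whereas white medium held 1 μM dexamethasone and neither T3 nor rosiglitazone. By the labels, beige and white cells thus differed in medium, brown and beige cells in depot, and brown and white cells in both. The study's paper does not describe the brown libraries, which may have been made separately. In every comparison with brown, a difference between experiments cannot be told apart from depot. Cultures of this kind are made of all stromal cells that were plated, and a closed promoter in a mixed culture cannot be told apart from a promoter open in too few cells.

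Many lncRNA genes are transcribed at low levels and in few cell types, and many start from enhancers or from promoters without a CpG island, the CpG-dense stretch found at most promoters of housekeeping genes. Others are broadly used. Host genes carry small nucleolar RNAs or microRNAs in their introns, imprinted lncRNAs silence neighbouring genes on 1 parental chromosome, and Lncbate1 and Ctcflos were described as regulators of brown and beige adipocytes.

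The sequences below show 1 promoter of each main pattern described in the following paragraphs. Each is the 201-base window around the strongest summit at that promoter, read from the RefSeq GRCm38.p6 (mm10) genome on the strand of the gene. Capitals mark matches to the short motifs searched, which were TATAAA, the CCAAT box, GGGCGG (the box of SP and KLF factors), CCGGAAG (an ETS site with a CpG), TGANTCA (AP-1), TGACGTCA (the cAMP response element), TTGCNNAA (C/EBP type) and GGAATG (TEAD type), on either strand. Matches are letters in a window and do not show that a factor was bound.

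Open in all 6 libraries were Lncbate1 (chr8:108584547-108584747, minus strand), Kcnq1ot1 (chr7:143296476-143296676, minus) and Firre (chrX:50635325-50635525, minus). They hold 6, 10 and 8 CpG, a C/EBP-type match, a CCAAT box and no match.
Lncbate1: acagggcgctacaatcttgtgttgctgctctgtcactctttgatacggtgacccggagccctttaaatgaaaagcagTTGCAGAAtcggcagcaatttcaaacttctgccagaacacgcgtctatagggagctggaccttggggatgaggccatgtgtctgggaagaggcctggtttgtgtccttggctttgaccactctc
Kcnq1ot1: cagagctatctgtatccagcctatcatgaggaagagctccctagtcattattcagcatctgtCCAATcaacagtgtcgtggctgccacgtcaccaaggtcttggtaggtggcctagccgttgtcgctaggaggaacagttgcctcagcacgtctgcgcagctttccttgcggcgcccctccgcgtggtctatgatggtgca
Firre: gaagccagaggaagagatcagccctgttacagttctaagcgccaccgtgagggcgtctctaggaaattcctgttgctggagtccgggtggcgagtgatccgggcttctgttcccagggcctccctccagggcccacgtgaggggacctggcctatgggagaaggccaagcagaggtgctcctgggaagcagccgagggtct

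Open in 1 condition were Gm12002 (chr11:12314767-12314967, plus; beige), A530021J07Rik (chr7:83061682-83061882, plus; white), Gm20756 (chr6:25931229-25931429, plus; brown) and Ctcflos (chr2:173110709-173110909, plus; brown). Gm12002 and A530021J07Rik hold 0 CpG, Gm20756 holds 4 and Ctcflos 5.
Gm12002: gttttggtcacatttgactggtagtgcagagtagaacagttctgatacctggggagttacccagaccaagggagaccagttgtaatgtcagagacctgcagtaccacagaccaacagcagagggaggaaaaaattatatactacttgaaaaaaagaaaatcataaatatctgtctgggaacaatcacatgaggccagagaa
A530021J07Rik: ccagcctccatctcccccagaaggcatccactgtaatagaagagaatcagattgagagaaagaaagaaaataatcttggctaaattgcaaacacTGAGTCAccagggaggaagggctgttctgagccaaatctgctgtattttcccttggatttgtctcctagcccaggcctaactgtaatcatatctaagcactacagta
Gm20756: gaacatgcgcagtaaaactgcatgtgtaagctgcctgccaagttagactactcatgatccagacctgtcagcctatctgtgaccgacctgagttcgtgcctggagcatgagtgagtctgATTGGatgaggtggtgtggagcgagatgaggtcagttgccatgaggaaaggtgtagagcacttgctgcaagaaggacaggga
Ctcflos: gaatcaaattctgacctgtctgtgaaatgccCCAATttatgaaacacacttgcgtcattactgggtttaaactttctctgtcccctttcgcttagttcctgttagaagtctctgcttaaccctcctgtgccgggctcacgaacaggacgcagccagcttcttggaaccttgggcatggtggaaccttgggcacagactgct

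Open in 2 conditions and closed in the third were Gm31600 (chr13:37761689-37761889, plus; beige and brown) and Gm30709 (chr13:63627327-63627527, minus; beige and white), with 3 and 6 CpG. Gm31600 has the reverse complement of TATAAA and Gm30709 the reverse complement of GGGCGG.
Gm31600: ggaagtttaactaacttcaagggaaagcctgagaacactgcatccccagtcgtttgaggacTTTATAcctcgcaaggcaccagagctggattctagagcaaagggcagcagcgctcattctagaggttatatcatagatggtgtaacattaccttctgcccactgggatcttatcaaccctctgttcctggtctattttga
Gm30709: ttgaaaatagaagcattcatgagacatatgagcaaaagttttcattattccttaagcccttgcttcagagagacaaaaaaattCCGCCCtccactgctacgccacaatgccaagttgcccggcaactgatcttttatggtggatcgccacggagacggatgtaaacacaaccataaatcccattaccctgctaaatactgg

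About 1 in 5 lncRNA promoters was open. The number was 1458 in beige 1, 1538 in beige 2, 1484 in white 1, 1395 in white 2, 1489 in brown 1 and 1406 in brown 2. The lowest share was 20.3% (95% Clopper-Pearson interval 19.4 to 21.3) in white 2 and the highest 22.4% (21.4 to 23.4) in beige 2; these intervals cover counting error only. The mean was 21.8% ± 0.82 (SD, n = 2 libraries) in beige, 20.9% ± 0.92 (SD, n = 2) in white and 21.1% ± 0.85 (SD, n = 2) in brown. Beige exceeded white by 0.85 percentage points and brown by 0.73, and white was 0.12 points under brown, while replicates of 1 condition lay up to 1.29 points apart. With equally long lists beige minus brown came to −0.31 points, and within 500 bp white was 0.044 points above brown. An exact two-sided permutation test of the labels gave p = 0.667 for each pair of conditions, where 2 libraries against 2 allow no p under 0.333. For brown against the other 4 libraries the exact test gave p = 0.733, with 0.0667 as the smallest p possible.

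Protein-coding promoters, taken as the same 1 kb around the 5′ end of 21938 protein-coding gene records, were open far more often, at 63.9%. The difference was 42.6 percentage points in the mean and lay between 42.1 and 43.2 in every library (adjusted p = 0.0375, exact sign-flip permutation test over 6 libraries, two-sided, Benjamini-Hochberg over 6 tests; the raw p of 0.0313 is the smallest that 6 libraries allow). Against other sites of the genome the lncRNA starts stood higher. At the 5176 genes whose 3′ end could be used, 20.5% of the starts and 10.5% of the ends were open, a difference of 10.0 points (adjusted p = 0.0375, the same exact test). Starts of processed pseudogenes, which are mostly retrocopies without a promoter of their own, were open at 5.88%, starts of TEC records, which are provisional annotations, at 12.0% and microRNA gene starts at 9.91%. Pseudogene and TEC starts lay below the lncRNA starts in 6 of 6 libraries (adjusted p = 0.0375 each, exact sign-flip test), and the microRNA starts were not tested. The 6 libraries score the same sites, so the sign-flip test measures agreement between libraries and not the counting error of genes.

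**Figure D1:**
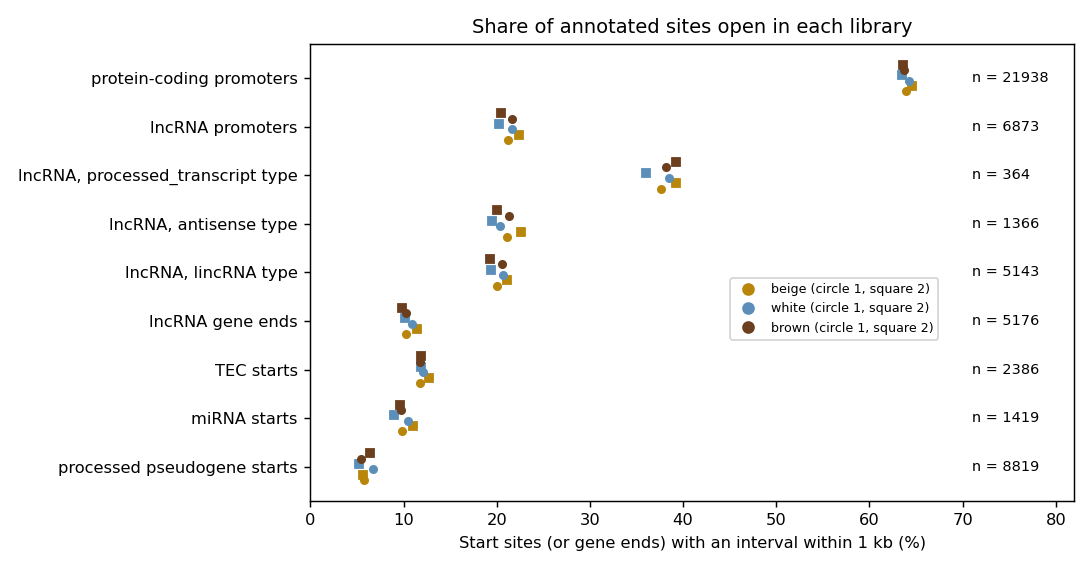
Share of annotated sites with an interval within 1 kb (x axis, percent) for each set of sites (y axis, with the number of sites), 1 point per library, coloured by condition, circles for replicate 1 and squares for replicate 2. The 6 lncRNA points sit between 20.3% and 22.4%, far below the protein-coding promoters and above gene ends, TEC, microRNA and pseudogene starts.

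Among the 3 gene types, processed_transcript genes stood apart. Their promoters were open at 38.1% ± 1.23 (SD, n = 6 libraries), against 20.2% ± 0.76 (SD, n = 6) of lincRNA promoters, 17.96 points higher and higher in 6 of 6 libraries (adjusted p = 0.0375, exact sign-flip test). Antisense promoters were open at 20.8% ± 1.10 (SD, n = 6), which was 0.65 points over lincRNA promoters and higher in 5 of 6 libraries (adjusted p = 0.0938, exact test). Here too the test does not cover the counting error of the genes of a type. The share also fell with distance from protein-coding genes. It was 26.5% for the 699 promoters at 5 to 10 kb, 26.2% for the 963 at 10 to 20 kb and 26.3% for the 1520 at 20 to 50 kb, then 21.3% at 50 to 100 kb, 19.3% at 100 to 200 kb and 10.9% for the 1340 beyond 200 kb. The types differed in this distance, with medians of 79.9 kb for lincRNA, 20.8 kb for antisense and 32.7 kb for processed_transcript genes. They were not compared at like distance.

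Intervals gathered at the start site itself. In 100-bp bins the share of lncRNA starts covered by an interval peaked in the bin centred 50 bp upstream, at 9.41% to 11.0% across libraries, and was 1.58% to 2.13% in the flanks. Coverage was about even on both sides, at 4.28% to 5.60% over the 1 kb upstream and 4.403% to 5.685% downstream. Protein-coding starts peaked 50 bp downstream at 52.9% to 54.9%, and had 19.7% to 23.7% upstream but 29.8% to 35.3% downstream. Ends of lncRNA genes had no such peak, and their highest bin was 2.03% to 2.67%. Of the strongest intervals at open lncRNA promoters, 44.4% to 45.7% had the summit within 250 bp of the start, and the median summit lay 31.0 to 44.5 bp upstream. At the other open promoters the strongest interval had its summit over 250 bp from the annotated start. Whether a weaker interval lay nearer to the start was not counted. Between 82 and 96 open promoters per library shared their strongest interval with another lncRNA start, so promoters are not all separate observations.

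**Figure D2:**
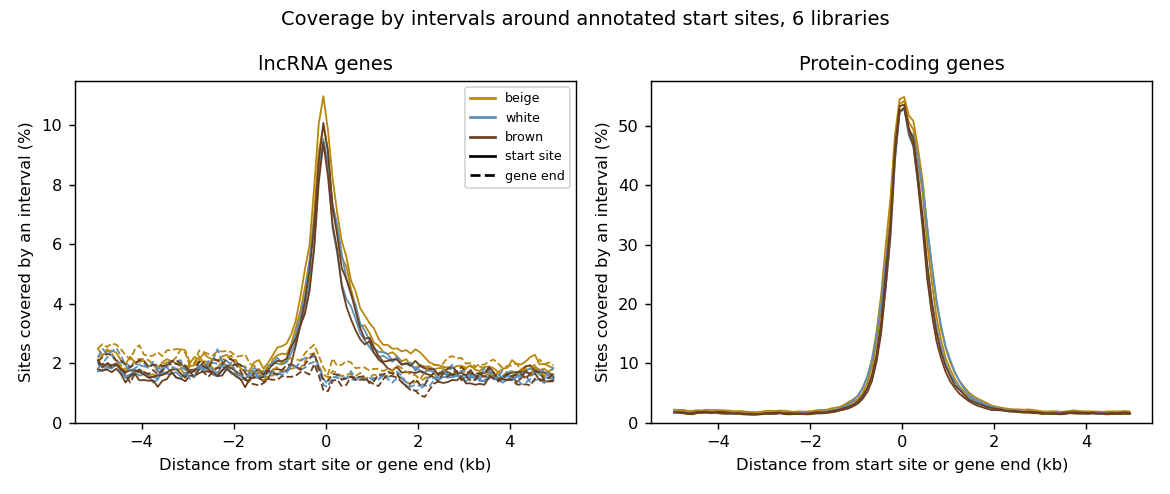
Share of sites covered by an interval (y axis, percent) by distance in kb from the start site or gene end in the direction of transcription (x axis), 1 line per library coloured by condition, solid for starts and dashed for lncRNA gene ends. The lncRNA starts (left) peak at 9.41% to 11.0% just upstream over a flank of 1.58% to 2.13%, and the protein-coding starts (right, another scale) peak at 52.9% to 54.9% just downstream.

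Most lncRNA promoters were closed throughout, and those open anywhere were often not open in every library. Of the 6873, 4744 (69.0%) were open in no library and 995 (14.5%) in all 6, against 59.8% of protein-coding promoters in all 6. Among promoters open in at least 1 library, 46.7% of lncRNA and 86.8% of protein-coding promoters were open in all 6. In between, 459 were open in 1 library, 199 in 2, 158 in 3, 121 in 4 and 197 in 5. The median −log10 q of the strongest interval, which says how far it lies from the authors' threshold within its own library, rose along this series from 4.11 for promoters open in 1 library through 5.70 in 3 and 8.60 in 5 to 29.7 in all 6. Promoters open in a single library thus had the weakest calls in the median, and white 1 held 124 of them against 56 to 89 in each other library. Replicates disagreed often. The Jaccard index, which is the number of promoters open in both libraries over those open in either, was 0.792 between the beige libraries, 0.6995 between the white and 0.724 between the brown, and 0.661 to 0.752 for pairs from different conditions. For protein-coding promoters it was 0.945 in the mean within conditions and 0.939 between them.

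To compare conditions, a promoter was called when it was open in both libraries of 1 condition and in neither library of the other. Because 2 libraries a condition allow no p below 0.333, these calls are counts without a test, and each is given beside the same count over all 194496 merged regions of the 6 lists and over the 15123 protein-coding promoters open anywhere. Of the 2129 lncRNA promoters open in at least 1 library, 70 (3.29%) were open in beige and not in white, 73 (3.43%) in beige and not in brown, 33 (1.55%) in white and not in beige, 45 (2.11%) in white and not in brown, 46 (2.16%) in brown and not in beige and 65 (3.05%) in brown and not in white.

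Counted as merged regions, which is the like-for-like comparison with the background, 108 of 2763 regions at lncRNA promoters (3.91%) were open in beige and not in white, against 4.49% of all regions. For beige and not brown it was 121 (4.38%) against 4.8%. For white and not beige it was 41 (1.48%) against 1.98%, and for white and not brown 66 (2.39%) against 3.48%. For brown and not beige it was 51 (1.85%) against 1.56%, and for brown and not white 89 (3.22%) against 2.94%. The shares at lncRNA promoters were below those of all regions in the 4 directions where beige or white was open, by most for white and not brown, and slightly above them in both directions where brown was open. These departures from the background were not tested. They were open in all 6 libraries somewhat more often, at 39.1% against 30.2% of all regions. Protein-coding promoters had lower shares, at 0.866% for beige and not white, 0.893% for beige and not brown, 0.529% for white and not beige, 0.741% for white and not brown, 0.417% for brown and not beige and 0.608% for brown and not white.

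**Figure D3:**
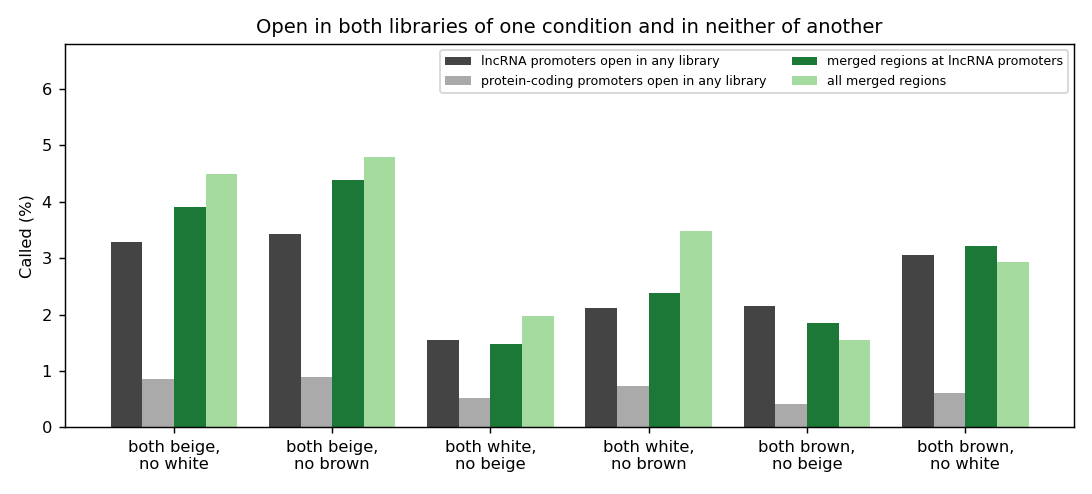
Percent called (y axis) in each of 6 directions (x axis), where called means open in both libraries of the first condition and in neither of the second. Bars give lncRNA and protein-coding promoters open in any library, and merged regions at lncRNA promoters and everywhere; regions at lncRNA promoters are below all regions for beige and not white (3.91% against 4.49%) and above them for brown and not white (3.22% against 2.94%), and the protein-coding bars are lowest.

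Asked of all 6 libraries at once, 33 lncRNA promoters were open in both beige libraries and in none of the other 4, 11 in white alone and 28 in brown alone. Another 20 were open in beige and brown but not white, 11 in beige and white but not brown and 4 in white and brown but not beige. As merged regions the same patterns held 1.81%, 0.688%, 1.27%, 1.09%, 0.724% and 0.0724% of regions at lncRNA promoters, against 1.94%, 1.22%, 0.878%, 1.25%, 1.16% and 0.243% of all regions. The brown-alone share was above that of all regions and the other 5 were below it. As promoters, they held 1.55%, 0.517%, 1.32%, 0.939%, 0.517% and 0.188% of the lncRNA promoters open anywhere, and 0.284%, 0.278%, 0.192%, 0.264%, 0.231% and 0.0793% of the protein-coding ones. The weakest of the calls had a −log10 q of 5 or less in many cases. The lowest −log10 q was over 5 in 18 of 33 beige, 3 of 11 white, 5 of 28 brown, 8 of 20 beige and brown, 4 of 11 beige and white and 0 of 4 white and brown promoters. Leaving out 1 library moved every one of these counts upward (beige alone to between 37 and 94, white alone to between 16 and 135, brown alone to between 34 and 117), since each pattern then needs fewer libraries.

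A second check concerned the 1 kb edge. An interval that ends just inside the window in some libraries and just outside it in others gives a pattern that rests on the window. This held for 2 of 33 beige promoters (AC131709.1 and 4930512J16Rik, with summits 1146 to 1198 bp upstream), 2 of 11 white, 1 of 20 beige and brown, 4 of 11 beige and white and 0 of the 28 brown and 4 white and brown promoters, where a library called closed had an interval that overlaps the one called open. The white promoter 8030453O22Rik, with summits 1067 and 1817 bp downstream, and the beige and white promoters Gm13656 and Gm42948, with summits 1235 to 1438 bp upstream, ranked highest in their patterns and belong to this kind.

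The promoters open in beige alone included Gm43848, Gm12002 and Gm15322, for which no other library had an overlapping interval. At Gm12002, an antisense gene in the neighbourhood of Cobl (chr11:12314514-12351028, plus strand; its nearest protein-coding start lies 55126 bp away), the −log10 q was 9.50 and 20.0 in beige 1 and 2, with summits 348 and 353 bp downstream of the start. Gm43848 had 16.3 and 25.98 with summits 855 and 876 bp downstream, and Gm15322 had 11.6 and 18.1 at 783 and 811 bp. The 4 white and brown libraries had no interval at any of the 3 genes.

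Among the promoters open in white alone, A530021J07Rik (chr7:83061783-83179429, plus strand, lincRNA) had a −log10 q of 5.43 in white 1 and 8.99 in white 2, with summits 11 and 1 bp upstream of the annotated start, and no interval in beige or brown. Gm19583 had 6.40 and 4.53, CT033772.2 had 9.05 and 3.45, and Gm14812 had 5.95 and 3.41. At Gm14812 the summits lay 289 bp upstream in white 1 and 879 bp downstream in white 2, so the libraries did not share a position.

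Brown alone was led by Gm20756 (chr6:25931426-25977227, plus strand, lincRNA; 122180 bp from the start of Pot1a). Its −log10 q was 21.4 in brown 1 and 14.96 in brown 2, with summits 97 and 105 bp upstream, and no beige or white library had an interval. By fold enrichment it ranked at the 77.0th and 74.9th percentile of all intervals of these libraries. AC105304.3 followed with 10.8 and 11.8 and both summits 124 bp downstream, then Gm34471 with 7.83 and 7.24 and summits 81 and 58 bp downstream. Of the 28 brown promoters, 16 had a summit within 250 bp of the start, against 12 of 33 in beige and 5 of 11 in white. It was 8 of 20 in beige and brown, 8 of 11 in beige and white and 2 of 4 in white and brown. Over all open lncRNA promoters the share was 44.4% to 45.7% per library, and these counts were not tested.

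Promoters open in beige and brown, the conditions that share T3, rosiglitazone and the higher dexamethasone dose, were led by Gm31600 (chr13:37761748-37768147, plus strand, lincRNA). Its −log10 q was 23.0, 15.1, 15.5 and 14.6 in beige 1, beige 2, brown 1 and brown 2, with summits between 268 bp upstream and 96 bp downstream. Gm47552 had 37.9, 20.8, 14.8 and 27.6, with 3 of 4 summits 101 to 110 bp upstream, and lies 113155 bp from the start of Egln3, which encodes an oxygen-sensing prolyl hydroxylase. Gm28865 had 15.6, 36.0, 7.11 and 6.50 with summits 280 to 308 bp upstream. Gm29229 and 2310015D24Rik completed the 5, and neither white library had an interval at any of them.

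In the opposite combination, open in the inguinal cells and not in brown, 3 of the 5 highest ranked promoters had no overlapping interval in a brown library. Gm48730 had a −log10 q of 10.4, 17.1, 12.0 and 5.54 in beige 1, beige 2, white 1 and white 2, with summits 43 to 79 bp downstream. Gm30709 (chr13:63621500-63627379, minus strand; 53781 bp from the start of Ptch1, the Hedgehog receptor) had 7.76, 4.94, 9.18 and 7.87 with summits 21 to 50 bp upstream. A830009L08Rik had 9.71, 5.66, 4.48 and 7.99 with summits 50 to 77 bp downstream. The brown lists held nothing at these starts. The 4 promoters open in the white and the brown lists but closed in beige were Gm48809, Gm15835, Gm14424 and AC154577.1, and their −log10 q lay between 2.82 and 9.48.

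**Figure D4:**
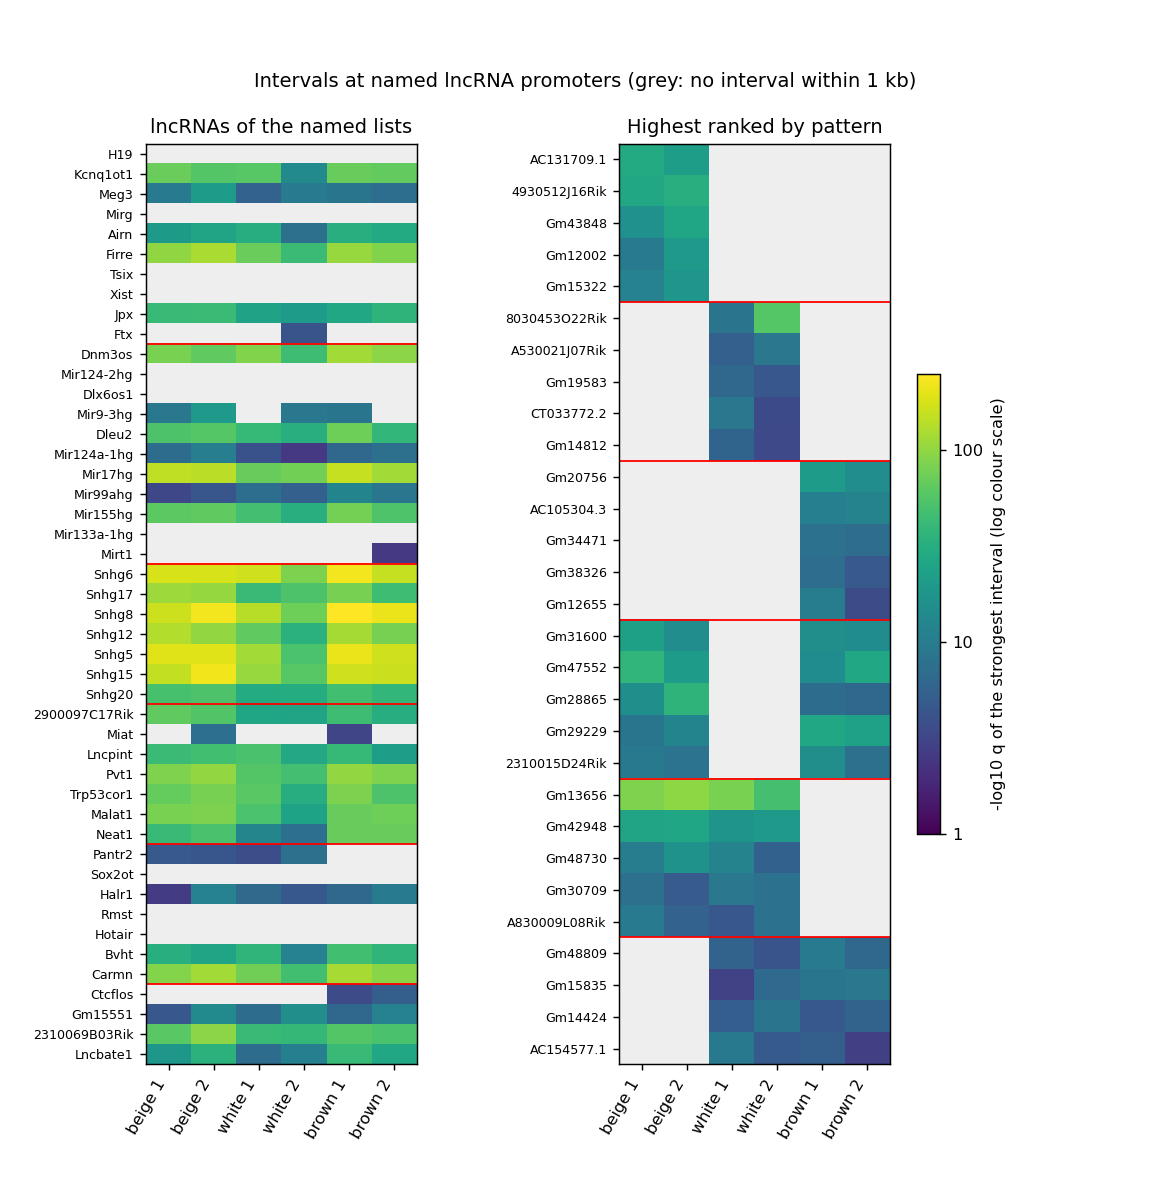
−log10 q of the strongest interval (colour, log scale) in each of 6 libraries (x axis) at the kept lncRNAs of the 6 named lists (left) and at the highest ranked promoters of each pattern (right), with red lines between lists or patterns and grey where no interval lies within 1 kb. Host genes of snoRNAs are coloured in all 6 libraries, H19, Xist and Hotair in none, and AC131709.1, 4930512J16Rik, 8030453O22Rik, Gm13656 and Gm42948 have overlapping intervals beyond 1 kb in libraries shown grey.

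The adipose lncRNAs that could be read were mostly open in every condition. Of 10 named, 5 were found in the annotation and 4 were kept by the rule, so the others were not read. Of the 4 kept, 3 were open in all 6 libraries. At Lncbate1, an RNA required for the brown adipocyte programme (chr8:108553252-108584595, minus strand), the −log10 q was 18.7 and 35.1 in beige, 7.05 and 10.9 in white and 42.6 and 27.2 in brown. Its summits lay 27 to 110 bp upstream. By fold it ranked at the 58.1st and 70.5th percentile in beige, the 35.5th and 58.9th in white and the 79.5th and 75.2nd in brown, so that both brown ranks stood above all 4 others while beige and white overlapped. 2310069B03Rik ranked at the 90.2nd to 97.6th percentile in every library, with summits 48 to 73 bp upstream. Ctcflos, an antisense gene 8707 bp from the start of Ctcfl and described in thermogenic adipocytes, was open in brown alone, with a −log10 q of 3.50 and 5.35 and summits 3 and 9 bp upstream of its start. Both values are low, and the beige libraries, made with the same medium, had no interval there.

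Imprinted and X-inactivation RNAs split sharply. Of 10 kept, 5 were open in all 6 libraries, 4 in none and 1 in a single library. At Kcnq1ot1, the paternally expressed RNA that silences the Cdkn1c domain, the −log10 q was 70.4, 56.8, 59.96, 14.2, 70.0 and 67.2 in beige 1 to brown 2, with all summits 7 to 35 bp upstream. At Airn, which silences Igf2r, it was 20.4, 25.2, 31.0, 7.67, 33.0 and 29.4, with summits within 26 bp of the start. The summits of Meg3, expressed from the maternal chromosome, also fell within 43 bp of the start, at lower −log10 q (5.63 to 20.9). In contrast H19, the maternal RNA next to Igf2, and Mirg had no interval in any library.

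On the X chromosome, Firre, which helps to arrange nuclear architecture, had a −log10 q between 43.1 and 124.3, and Jpx, an activator of Xist, between 20.7 and 43.0. Xist, the RNA that coats the inactive X of female cells, and its antisense partner Tsix were closed in all 6 libraries, and the mice were male. Ftx was open in white 2 alone (−log10 q 4.18).

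Host genes of small RNAs were read as a pair of lists, and the difference between the lists was not tested. Of 23 snoRNA hosts named, 17 were found in the annotation and 7 were kept by the rule. All 7 kept snoRNA hosts were open in all 6 libraries, and Snhg6, Snhg8, Snhg5 and Snhg15 had a −log10 q between 52.03 and 249.5. Snhg12 had its summit within 11 bp of the start in every library. Of 11 kept genes of the microRNA host list, 6 were open in all 6 libraries, 3 in none and 2 in some. The list was set by gene name. Whether each member hosts a microRNA was not checked, Dlx6os1 and Mirt1 included. Mir17hg, host of the proliferation-linked miR-17-92 cluster, had a −log10 q of 69.7 to 156.0, with summits 612 to 641 bp upstream of the annotated start. Mir155hg, host of an inflammation-linked microRNA, had 31.7 to 78.9, and Dnm3os, host of miR-199 and miR-214, had 45.6 to 117.3. Mir124a-1hg, a host of the neuronal miR-124, was open in all 6 at a −log10 q of 2.51 to 10.7. Closed were Mir124-2hg, another host of miR-124, Dlx6os1, which is used in neurons, and Mir133a-1hg, which is used in muscle. Mir9-3hg was open in 4 libraries and Mirt1 in brown 2 alone (−log10 q 2.48).

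Mir99ahg changed rank with condition. Its fold ranked at the 18.7th and 24.0th percentile in beige, the 52.7th and 38.2nd in white and the 63.1st and 60.6th in brown, so beige lay below both other conditions without overlap. However, its strongest summit moved between 7 bp upstream and 904 bp downstream of the start, which means that the ranks are not those of 1 position.

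Among the abundant lncRNAs, 6 of the 7 kept were open in all 6 libraries. Malat1, the nuclear speckle RNA, had its strongest summit 905 to 1103 bp upstream of the annotated start, and Pvt1, a neighbour of Myc, had it 3 to 23 bp downstream. Neat1, the scaffold of paraspeckles, had a −log10 q of 41.3 and 50.99 in beige, 12.6 and 7.49 in white and 68.9 and 69.0 in brown. Its fold ranked at only the 4.19th and 5.21st percentile in beige, the 0.97th and 0.09th in white and the 21.3rd and 36.8th in brown. The 3 conditions do not overlap, but all ranks are low although the −log10 q is not, and its strongest summit moved between 178 bp upstream and 103 bp downstream. Miat, studied mainly in neurons and heart, was open in beige 2 and brown 1. Of 7 kept developmental lncRNAs, 3 (Carmn, Bvht and Halr1) were open in all 6, and Hotair of the HOXC cluster, Rmst and Sox2ot, the last of which overlaps Sox2 and is used in neural progenitors, in none. Pantr2, next to Pou3f3, was open in beige and white (−log10 q 3.77 to 7.66) and not within 1 kb in brown, where 1 brown library had an overlapping interval.

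The 995 promoters open in all 6 libraries were compared by rank. Each was given the percentile of its strongest interval among the folds of its own library, since folds of different libraries are not on 1 scale. Both beige percentiles were above both white ones at 238 promoters (23.9%) and below them at 216 (21.7%), where protein-coding promoters open in all 6 gave 28.5% and 19.6%. Against brown, beige was above at 264 (26.5%) and below at 264 (26.5%), where the protein-coding values were 17.5% and 33.3%. White was above brown at 240 (24.1%) and below at 236 (23.7%), against 14.9% and 34.7%. Between brown and the other conditions, lncRNA promoters were thus evenly split and protein-coding promoters were not. The medians of the difference in percentile were 0.16 for beige minus brown and 0.20 for white minus brown at lncRNA promoters, and −0.85 and −1.66 at protein-coding ones.

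Large shifts occurred in every direction, and the 5 largest per direction were listed. Gm45253, which lies 85149 bp from the start of Acsl1, an acyl-CoA synthetase of fatty acid metabolism, ranked at the 81.0th and 91.8th percentile in beige, the 31.2nd and 48.8th in white and the 81.5th and 76.8th in brown. Gm20488, 43273 bp from Medag, an adipogenesis gene, had 51.7 and 51.5 in beige, 20.0 and 11.0 in white and 47.6 and 68.8 in brown. Gm13074 had 73.1 and 66.2 in beige, 27.3 and 26.8 in white and 89.6 and 84.9 in brown. In these 3, white was lowest and did not overlap with either other condition. The summits of Gm45253 stayed 78 to 101 bp upstream and those of Gm13074 264 to 319 bp upstream in every library. At Gm20488 they lay 362 to 397 bp upstream in beige and brown but 336 and 627 bp downstream in white, so its ranks compare different positions.

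The reverse was seen at Gm29591, 40010 bp from Cav1, the caveolin of the adipocyte membrane, with 19.7 and 30.1 in beige, 62.8 and 81.4 in white and 73.6 and 71.8 in brown. Gm6209, 163609 bp from Slc7a11, the cystine transporter, had 12.3 and 21.6 in beige, 63.2 and 50.4 in white and 63.99 and 69.9 in brown. For both, beige was lowest, and the summits stayed at 442 to 487 bp downstream for Gm29591 and 695 to 772 bp upstream for Gm6209. Gm26771, 23103 bp from Sfrp2, a Wnt-binding protein of stromal cells, had 50.2 and 57.0 in beige, 74.8 and 70.9 in white and 37.8 and 10.8 in brown, and the white ranks were above all others, but its strongest summit moved between 364 bp upstream and 175 bp downstream, also within a condition, so the ranks are not those of 1 position. These genes were picked for their size of shift, and the values are a description.

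The lncRNA promoters with the highest mean rank among those open in all 6 libraries were selected over all conditions together, so their order says nothing about a condition. 9330159M07Rik and Gm26611 start head to head on chromosome 9 and share 1 interval, which ranked between the 99.8th and 100.0th percentile in each library and had a −log10 q of 71.3 to 249.5. Next came 9430037G07Rik, Gm6712 and Gm42555, then Gm48693 and Gm49700, which share an interval on chromosome 12, and BC002059, Gm5165 and AC132253.9. At AC132253.9 the central 51 bp of the summit window occur 17 times in the genome, so its reads may come from several places. The other 38 pattern and top-ranked promoters were found once.

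Sequence at the summits set lncRNA promoters between protein-coding promoters and distal intervals. Each value below is a mean over the 6 libraries of 1741 to 2026 member windows, and all differences named had the same sign in 6 of 6 libraries and an adjusted p of 0.0323 (exact sign-flip permutation test, two-sided, Benjamini-Hochberg over 30 tests). The 201-bp window held 6.05 ± 0.19 CpG (SD, n = 6) at lncRNA promoters, 15.2 at protein-coding promoters and 2.94 in distal intervals. GC content was 53.0% ± 0.53 (SD, n = 6), 63.0% and 49.1%, and repeat-masked sequence made up 8.87%, 5.89% and 11.2%.

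Motifs of CpG-rich promoters followed the same order. GGGCGG occurred in 16.6% of lncRNA windows, 49.1% of protein-coding and 6.06% of distal windows. CCGGAAG occurred in 3.59%, 10.7% and 1.37%, and TGACGTCA in 1.10%, 2.02% and 0.54%. Other motifs were least frequent at protein-coding promoters and most frequent in distal windows. TGANTCA occurred in 20.5%, 5.56% and 28.0%, TTGCNNAA in 12.2%, 5.78% and 15.02%, GGAATG in 13.8%, 7.91% and 15.9%, TATAAA in 5.74%, 2.87% and 6.73%, and the core of the CTCF motif, the insulator protein, in 6.23%, 3.02% and 7.15%. For 2 motifs the lncRNA windows were not intermediate. CCAAT was lowest there, at 23.6% against 25.1% and 24.9%, and the glucocorticoid receptor palindrome highest, at 0.93% against 0.21% and 0.74%. These differences are small, and the palindrome was found in only 16 to 20 lncRNA windows per library. The libraries share many regions, so agreement of sign between them does not measure the counting error of windows. The strict DR1 element of PPARG was found in 0 windows in each library, which allows a share of up to 0.148% to 0.172%, and the NFI palindrome in 0 or 1, too few to compare.

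**Figure D5:**
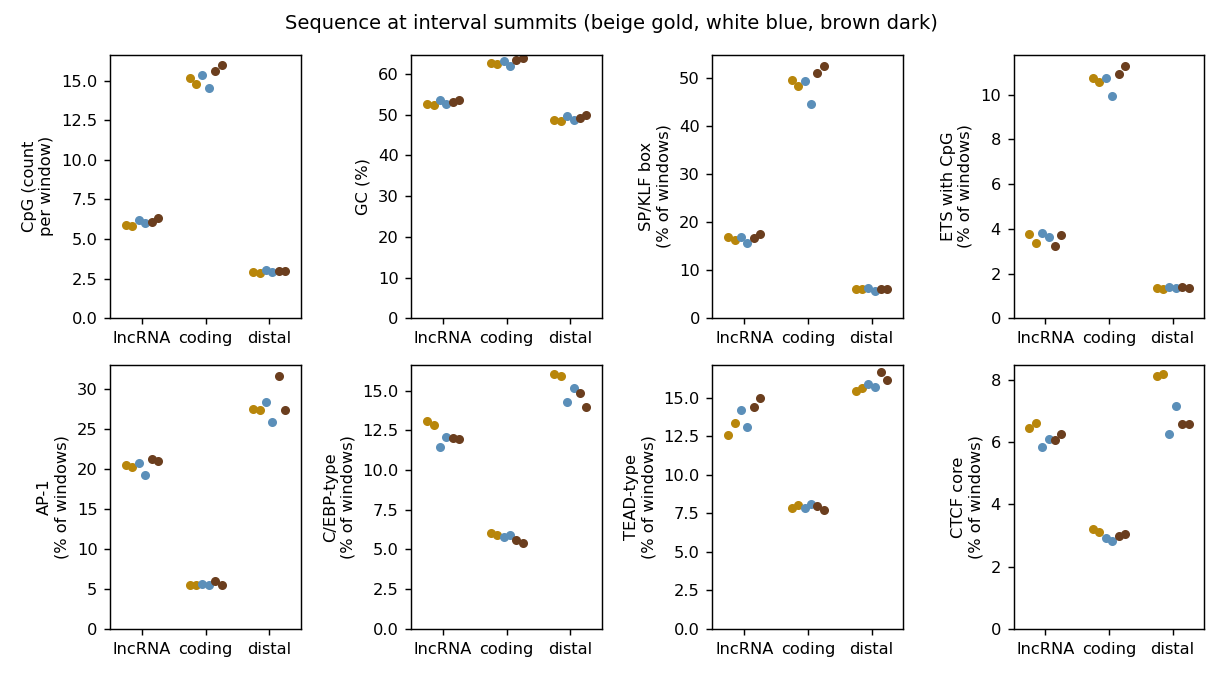
Sequence features of 201-bp windows at interval summits (y axes with units) for lncRNA promoters, protein-coding promoters and distal intervals (x axis), 1 point per library coloured by condition. In all 8 panels the lncRNA point of each library lies between its points for the other sets, for example 6.05 CpG per window in the mean against 15.2 and 2.94.

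These features varied with position and with the number of libraries in which a promoter was open. Windows whose summit lay within 250 bp of the start held 7.15 CpG, those at 250 to 1000 bp held 5.35 and those beyond 1 kb held 4.61. GGGCGG fell alike, from 21.1% through 13.7% to 11.6%. Promoters open in all 6 libraries held 7.28 CpG and 41.2% of them reached 6 CpG, against 19.1% of promoters of no named pattern. Among the smaller patterns the share ran from 9.09% of the 33 open in beige alone, through 28.6% of the 28 in brown alone, to 36.4% of the 11 in white alone and of the 11 in beige and white. The CTCF core ran differently from CpG. It rose away from the start, from 5.39% within 250 bp through 6.71% to 7.73% beyond 1 kb, and was found in 9.31% of promoters open in all 6, 9.09% of those in beige alone and 3.15% of those of no named pattern. The share was 10.0% in beige and brown and 9.09% in beige and white. None of the 11 promoters open in white alone, the 28 in brown alone or the 4 in white and brown held it. Over all lncRNA windows the share was 6.23% in the mean of libraries. Differences between the patterns were not tested. The patterns short of all 6 that have a name hold few promoters each.

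The labelled cell type was checked by protein-coding promoters. Of 10 adipocyte markers 7 or 8 were open in each library, Lipe and Cd36 in none. Each marker was read within 1 kb of the 5′ end of its gene record. A closed call therefore says nothing of other start sites of that gene. Of 8 brown and thermogenic markers, all were open in both brown libraries and 6 or 7 in the others, where Ucp1 was closed. Ebf2 was also closed in beige 2 and white 2. The remaining markers of that list, Zic1 and Lhx8 among them, were open in every library, so only Ucp1 set brown apart. Of 5 macrophage markers, 2 were open in each library and Csf1r, Ptprc and Itgam were closed, and of 5 endothelial markers 3 or 4 were open and Cdh5 was closed in all 6. Of 5 progenitor markers, 5 were open in both beige libraries, 4 in white 1, brown 1 and brown 2, and 2 in white 2, where Pdgfra, Pi16 and Ly6a were closed. The part of residual progenitors in the differences above was not tested.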

How the data were processed

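The authors trimmed adaptors, aligned ATAC-seq reads to mm10 with BWA and called peaks per library with MACS2 at a q value under 0.05. The deposited lists hold, for each summit, a fold enrichment, which is a ratio over the local background of that library, and the −log10 of the q value, and no reads. The study's reporting summary states fewer mapped reads for the beige than for the white libraries; those totals were not used here, and none is given there for brown. Summits sharing an interval were counted once, at the highest −log10 q. Fold was used only as a percentile within a list, and −log10 q was not compared between libraries as signal. The beige and white replicates are biological replicates per the study. For brown the sources used here do not say so, and its spread may be technical.

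Start sites came from GENCODE M21 (GRCm38) and sequences from RefSeq GRCm38.p6. An interval was a member with 1 bp within 1 kb, and regions merged over the 6 lists share or touch bases. Motifs were searched on both strands 100 bp to each side of the summit, and a match to 1 motif may share bases with another. The CTCF core, the DR1 (AGGTCA repeats 1 base apart), the NFI palindrome (TTGGC and GCCAA 5 bases apart) and the glucocorticoid palindrome allow free bases. Tests were exact permutation tests in Python 3.11.15 (numpy 2.4.6, scipy 1.17.1, statsmodels 0.14.6), tested on simulated data.

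Members and gene lists were chosen with earlier results of these data known. Named genes are the kept lncRNAs of 6 lists, the 5 highest ranked of each pattern and the 10 highest ranked open in all 6. The gene-end, pseudogene, TEC and microRNA references, the overlap of closed libraries, the largest rank shifts, genome copies, repeat content, summit-distance bins and the minimum of 6 CpG were added after values had been seen. Alternatives changed the q threshold, list length, distances, start sites, window and libraries.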

Additional observations from a re-analysis of the deposited data

How the results depend on the processing

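The share of lncRNA promoters open moved with the definition of open, in the same direction in each condition. In beige, white and brown it was 19.4%, 17.4% and 17.98% at a q value under 0.00001, 20.3%, 19.7% and 19.7% when the summit itself had to lie within 1 kb, 17.5%, 16.7% and 16.7% within 500 bp, and 23.3%, 22.5% and 22.6% with all transcript start sites. With equally long lists it was 20.4% in beige and 19.8% in white. The lncRNA minus protein-coding difference kept its sign and its side of the threshold under all 6 of these alternatives. Without 1 library it lay between −42.8 and −42.5 points, where 5 libraries allow no p under 0.0625; by that construction every sign-flip call was lost then (CpG −9.32 to −9.09 and GC −10.1 to −9.87 against protein-coding promoters, CpG 3.06 to 3.14 and GC 3.92 to 3.96 against distal intervals), and 0 of the motifs were called, in place of 5 lower and 6 higher than in protein-coding promoters and 8 lower and 4 higher than in distal intervals. The lower counts include DR1, and the 8 also NFI, both with too few windows to read. With 50 bp to each side of the summit, 5 motifs were lower than in distal intervals. Counts of patterns moved with the threshold and most by leaving out a library. At a q value under 0.00001 brown alone held 13, beige and brown 33, beige and white 23 and white and brown 7; white and brown held 9 with equally long lists, 7 by the summit and 2 over 10 kb from coding starts. Leaving out 1 library gave 37 to 94 for beige alone, 16 to 135 for white alone, 34 to 117 for brown alone, 24 to 66 for beige and brown, 16 to 72 for beige and white and 11 to 26 for white and brown. The white alone count was 68 without white 1 and 135 without white 2. The differences between conditions could not pass the threshold under any setting. The exact label test of 2 libraries against 2 allows no p under 0.333, and fewer libraries allow none lower. Beige minus brown was −0.306 points with equally long lists, and white minus brown was 0.0437 within 500 bp and between −0.764 and 0.531 without 1 library, turning positive without white 2 and, at 0.487, without brown 1. The labels tie no replicates together beyond a number, and deviations of equally numbered libraries correlated at 0.049, −0.030 and 0.041 over 2129 promoters. With the replicate number as a block, added after seeing the data, the differences stayed at 0.851, 0.735 and −0.116 points and the exact sign-flip p was 1.0, 1.0 and 0.5, where 2 pairs allow none under 0.5. How far depth limits the closed calls was not tested.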
